A study of Homo sapiens with 10 samples.

Results

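The comparison described here was between A549 cells that received an EP300-GFP fusion and A549 cells that received GFP alone, neither of them given hormone. A549 is an established line grown from a human lung adenocarcinoma. The 5 libraries labelled as vehicle treated, 3 GFP and 2 P300, were taken from the 10 RNA-seq libraries of the series by their labels. The other 5 libraries had the same pair of vectors and received dexamethasone, a synthetic glucocorticoid, at 100 nM. They were used here only as separate libraries in which to look at the same genes again. All cells were transfected with 1 ug of vector, kept for 48 h in medium with charcoal-stripped serum, which is depleted of steroids, and given ethanol (EtOH, the vehicle) or dexamethasone (Dex) for 1 h. They were then fixed in 75% ethanol and sorted for GFP fluorescence, so the control cells were also transfected, fluorescent and sorted. The fusion was made from a full p300 coding plasmid, and the counts cannot separate its transcript from that of the cell's own EP300 gene. Nothing in the labels ties the libraries of a group to separate cultures. The p-values therefore rest on how far these libraries differ from each other, and that spread may be technical.

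p300, the product of EP300, is a lysine acetyltransferase that transcription factors recruit to enhancers and promoters. It acetylates histones and other proteins there and acts as a coactivator of many genes. Its close relative CBP, the product of CREBBP, shares most of its domains and partners. Interferon genes, cell-type genes and the glucocorticoid response are among the programs in which the pair is known to act.

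EP300 was at 384, 296 and 353 CPM (read counts per gene scaled to a common library size, EP300 left out of that size) in GFP EtOH 1, 2 and 3. It was at 397000 CPM in P300 EtOH 1 and 147300 CPM in P300 EtOH 2. Its share of all gene counts was 0.0386%, 0.0271% and 0.0357% in the GFP libraries, 28.6% in P300 EtOH 1 (95% Clopper-Pearson interval 28.5 to 28.6) and 13.4% in P300 EtOH 2 (13.4 to 13.5). The groups were far apart, and the labels of all 5 libraries matched. The difference in a fit that kept EP300 was 9.60 ± 0.66 on the log2 scale (SE; edgeR quasi-likelihood test, adjusted p = 0.0149). EP300 was then removed before library sizes were computed, because its counts would otherwise enlarge the P300 library sizes. In the fit that kept it, the median log2 difference of the other genes was -0.153, against -0.149 without it. There 48 other genes rose and 0 fell. CREBBP was at 388, 413 and 374 CPM in GFP and at 314 and 242 CPM in P300. Its P300 libraries were both below the GFP libraries, and the difference of -0.49 ± 0.24 (log2, SE) did not pass the test (edgeR adjusted p = 0.317). NR3C1, the glucocorticoid receptor gene, was at 283, 210 and 272 CPM in GFP and 237 and 117 CPM in P300, ranges that overlapped.

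The libraries were not equally deep. The GFP EtOH libraries held 12007632 to 12177553 counts, P300 EtOH 1 held 10568823 and P300 EtOH 2 held 2278717. In P300 EtOH 2, 11861 genes had no count, and 3 counts, the limit that a count of 0 allows, equalled 1.52 CPM. In P300 EtOH 1 it was 5194 genes, and in the GFP EtOH libraries 2130 to 2591. At equal depth, with each library thinned to 1800000 counts without EP300, 13668 genes had a count in P300 EtOH 2, against 19181 in P300 EtOH 1 and 19071 to 19383 in the GFP libraries. Of 6247 genes with a GFP mean over 1 to 10 CPM, 5161 were then detected in P300 EtOH 1 and 3079 in P300 EtOH 2, against 5986 to 6029 in GFP. Of 1036 genes without a GFP count, 469 and 81 were. Choosing genes by GFP level favours these directions. The Pearson correlation of log2 CPM between libraries of a group was 0.753 for P300 and 0.961 to 0.985 for GFP, and the common dispersion was 0.795 in P300 and 0.0697 in GFP. Values are therefore given for each library. With 2 libraries against 3 an exact permutation test of a gene cannot give a p under 0.1, so p-values below are from edgeR's quasi-likelihood model over all genes, two-sided, with Benjamini-Hochberg adjustment.

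Of 17459 genes tested, 32 rose in the P300 libraries (0.183%) and 0 fell (0%) at an adjusted p of 0.05. Among the 32 were 2 of 25 tested striated muscle genes, 4 of 39 neuronal genes and 1 of 31 collagen genes, COL6A3. By their GFP mean, 11 of the 32 were under 1 CPM and 8 over 10 CPM. The log2 fold changes of the 32 genes ran from 2.16 for XDH to 7.83 for XIRP1, and their adjusted p from 0.0116 to 0.0492. Both P300 libraries were above all 3 GFP libraries in each of the 32. Without a correction, 3504 genes had a p under 0.05, and 1997 of them were lower in P300. All 32 calls were lost when GFP EtOH 1, 2 or 3 was left out (0 genes, smallest adjusted p 0.235, 0.281 and 0.108), although all 32 kept a positive fold change. Fitted without P300 EtOH 1, 2102 genes rose and 3484 fell, and without P300 EtOH 2, 2897 rose and 2222 fell, in fits where the lone P300 library is assumed to vary like the GFP libraries.

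**Figure D1:**
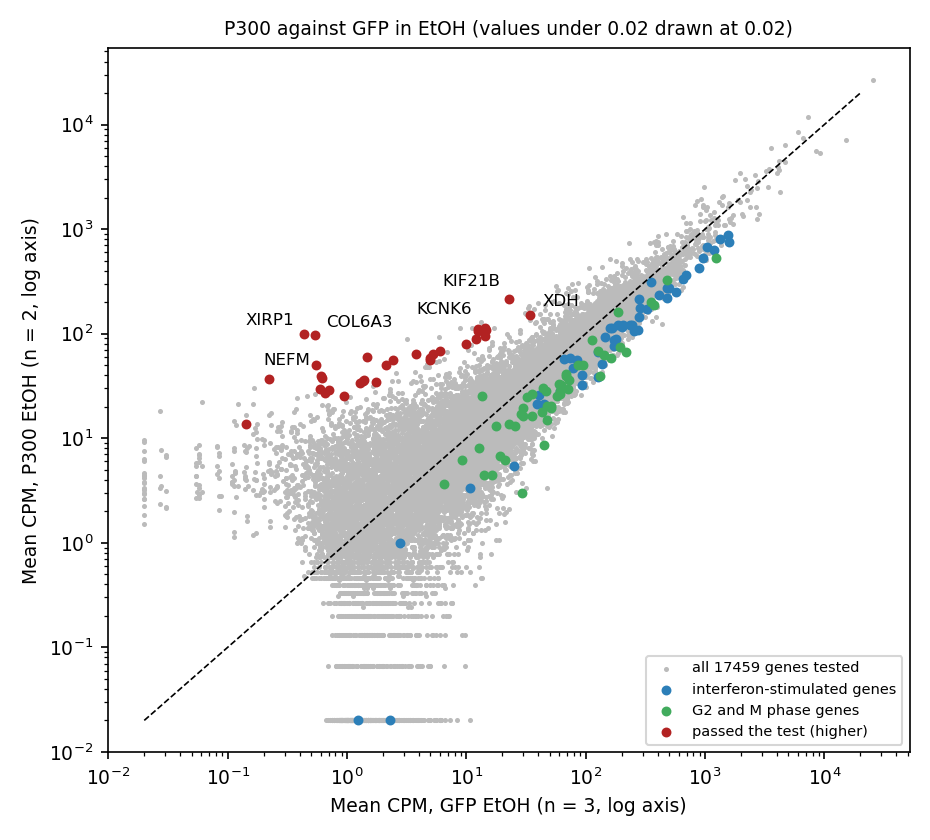
Mean CPM in GFP EtOH (x, n = 3) against P300 EtOH (y, n = 2) for the 17459 genes tested, on log axes, with the line of equal levels. The 32 genes that passed the test lie above the line, 11 of them with a GFP mean under 1 CPM, while the interferon-stimulated genes and nearly all G2 and M phase genes lie below it.

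COL6A3, which encodes a chain of collagen VI in the extracellular matrix, had the smallest p. It was at 0.573, 0.727 and 0.329 CPM in GFP EtOH 1, 2 and 3 and at 91.4 and 101 CPM in P300 EtOH 1 and 2. Every GFP library was near 0 and the P300 libraries were almost level with each other, a rise of 7.44 ± 0.45 on the log2 scale (SE, edgeR adjusted p = 0.0116). XIRP1, whose product Xin binds actin in heart and skeletal muscle, was at 0.328, 0.817 and 0.165 CPM in GFP and at 154 and 46.8 CPM in P300. The P300 libraries differed by more from each other here, yet both were far above GFP (7.83 ± 0.79, edgeR adjusted p = 0.0426). VGF, the precursor of several neuropeptides and a known cyclic-AMP responsive gene in neurons, started from a measurable level. It was at 16.1, 13.4 and 14.2 CPM in GFP and at 93.6 and 124 CPM in P300, a rise of 2.90 ± 0.30 (edgeR adjusted p = 0.0426) with no overlap.

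The promoters of these 3 genes are shown, COL6A3 and XIRP1 as the genes with the largest rises and VGF for its response element, to let their make-up be compared. Each run is the 250 bases before the RefSeq transcription start in GRCh38.p14, written 5′ to 3′ on the gene's strand, which is the minus strand for all 3. The windows are chr2:237414165-237414414 for COL6A3, chr3:39192596-39192845 for XIRP1 and chr7:101165570-101165819 for VGF. Capitals mark each CpG in COL6A3 and XIRP1, and the cyclic-AMP response element in VGF.
COL6A3: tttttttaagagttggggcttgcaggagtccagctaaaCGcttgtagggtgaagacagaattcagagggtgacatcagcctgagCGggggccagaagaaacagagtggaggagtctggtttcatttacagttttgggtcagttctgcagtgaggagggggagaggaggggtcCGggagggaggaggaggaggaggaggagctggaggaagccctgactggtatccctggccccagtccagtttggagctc
XIRP1: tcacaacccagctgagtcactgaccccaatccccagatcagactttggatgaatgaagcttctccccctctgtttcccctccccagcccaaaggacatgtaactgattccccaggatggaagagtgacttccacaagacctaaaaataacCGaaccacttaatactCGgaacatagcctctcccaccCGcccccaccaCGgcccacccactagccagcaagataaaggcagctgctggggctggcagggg
VGF: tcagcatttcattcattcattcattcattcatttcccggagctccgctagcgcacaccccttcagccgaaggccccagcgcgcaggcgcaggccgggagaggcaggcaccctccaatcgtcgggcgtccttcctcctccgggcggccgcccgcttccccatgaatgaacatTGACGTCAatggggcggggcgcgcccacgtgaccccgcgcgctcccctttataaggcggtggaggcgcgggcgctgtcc
The COL6A3 window holds 3 CpG, the XIRP1 window 4 and the VGF window 27. The letters TGACGTCA, the cyclic-AMP response element, to which CREB binds and recruits CBP or p300, begin 79 bases before the VGF start. Searched on both strands, they stood in 578 of 35116 promoter windows of the same length (1.65%) and in VGF alone among the 19 of the 32 genes that have a window. The letters TATAAA on the gene's strand stood in 6.80% of all windows and, among the 19, only in SHISA7. The GC box letters GGGCGG, searched on both strands, stood in 42.6% of all windows and in 14 of the 19, VGF and XIRP1 included. The shares of all windows count each window, whereas a gene among the 19 was counted if any window of it matched. For that reason, and with 13 of the 32 lacking a window, no property of the set can be compared with other genes. A match of letters is not a binding site.

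Muscle genes other than XIRP1 were also higher. TNNT2, cardiac troponin T, was at 0.819, 1.18 and 0.823 CPM in GFP and at 22.2 and 28 CPM in P300, and rose by 4.72 ± 0.57 (log2, edgeR adjusted p = 0.0459). PYGM, the muscle form of glycogen phosphorylase, was at 6.30, 4.45 and 4.12 CPM in GFP and at 67.5 and 45.3 CPM in P300. It rose by 3.51 ± 0.42 (edgeR adjusted p = 0.0459) and is not in the muscle list. Of 39 striated muscle genes in the table, 25 passed the filter on low counts, 2 of them rose (XIRP1 and TNNT2) and none fell. The 25 had a median log2 difference of 1.81, against -0.15 over all genes tested, with 13 above every GFP library and 1 below. Over all genes tested, 14.1% were above every GFP library and 26.5% below. A gene silent in GFP passes the filter only if it is high in P300, so neither this median nor the 13 above every GFP library is support by itself. Among the 15 members with at least 1 CPM in every GFP library, 11 were positive and the median was 0.88. Summed over all 39 members, the level was 392, 605 and 379 CPM in GFP and 916 and 1066 CPM in P300, so both P300 libraries stood above the GFP range. Embryonic myosin MYH3, with means of 41.4 and 154 CPM, and the calcium release channel RYR1, with 4.66 and 51.7 CPM, did not pass (edgeR adjusted p = 0.0539 and 0.0726). These and the other members named outside the naming rule were chosen after their values were seen.

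Of the neuronal genes 4 rose, while the summed level of the list did not separate the groups. NEFM, the middle-sized neurofilament subunit, was at 0.409, 0.817 and 0.576 CPM in GFP and at 34.1 and 45.3 CPM in P300 (6.02 ± 0.55, edgeR adjusted p = 0.0426). NRXN2, a presynaptic adhesion protein, was at 0.491, 1.09 and 0.0823 CPM in GFP and at 47.5 and 52.6 CPM in P300 (6.48 ± 0.81, edgeR adjusted p = 0.0492). Its GFP values spread widely around 1 CPM, but none came near the P300 libraries. SLC17A7, the vesicular glutamate transporter, was at 0.737, 1.64 and 1.48 CPM in GFP and 28.5 and 38.6 CPM in P300 (4.69 ± 0.57, edgeR adjusted p = 0.0459). Of 50 neuronal genes in the table, 39 were tested, 4 rose (these 3 and VGF) and none fell, where 0.183% of all genes rose, and 15 of the 39 were above every GFP library, where 14.1% of all genes were. Their median difference was 1.01, but 0.20 among the 25 with at least 1 CPM in every GFP library. A gene nearly silent in GFP passes the filter mainly if it is high in P300. Of the 1447 genes tested with a GFP mean over 0.1 to 1 CPM, 456 were above every GFP library. Neither the 15 nor the median of 1.01 is therefore support by itself. The summed level of the 50 was 1945, 4210 and 1797 CPM in GFP and 2100 and 3715 CPM in P300, which overlapped.

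Other genes that rose from under 3 CPM were also nearly silent in every GFP library. CRTAM, an immunoglobulin-family protein of cytotoxic lymphocytes, went from 0.328, 0.0908 and 0.247 CPM to 21.4 and 52.1 CPM (7.26 ± 0.75, edgeR adjusted p = 0.0426). SLC38A3, a glutamine transporter, went from 0.164, 0.182 and 0.0823 CPM to 16.1 and 11.6 CPM (6.48 ± 0.81, edgeR adjusted p = 0.0492). It was the 1 call of the 32 that the replicate block did not keep (edgeR adjusted p = 0.0546, from 9.22e-10 to 0.421 over the alternatives). ARHGAP9, a GTPase-activating protein, went from 0.737, 0.454 and 0.658 CPM to 42.1 and 33.8 CPM. Its P300 libraries were close to each other, and it rose by 5.91 ± 0.52 (edgeR adjusted p = 0.0426). RGS9, which shortens G-protein signals in the retina and striatum, was at 0.409, 0.545 and 0.823 CPM in GFP and 32 and 27 CPM in P300. SOX8, a developmental transcription factor, was at 0.901, 2.27 and 1.23 CPM in GFP and 89.0 and 30.9 CPM in P300. SHISA7 was at 0.655, 0.636 and 0.823 CPM in GFP and 33.7 and 24.1 CPM in P300. None of the GFP libraries overlapped the P300 libraries for these genes, and the rises were 5.61 ± 0.59, 5.36 ± 0.65 and 5.33 ± 0.55 on the log2 scale. NXNL2, related to a survival factor of photoreceptors, was at 0.655, 0.636 and 0.658 CPM in GFP and 19.5 and 34.2 CPM in P300. Its GFP libraries were level with each other, and it rose by 5.33 ± 0.59.

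**Figure D2:**
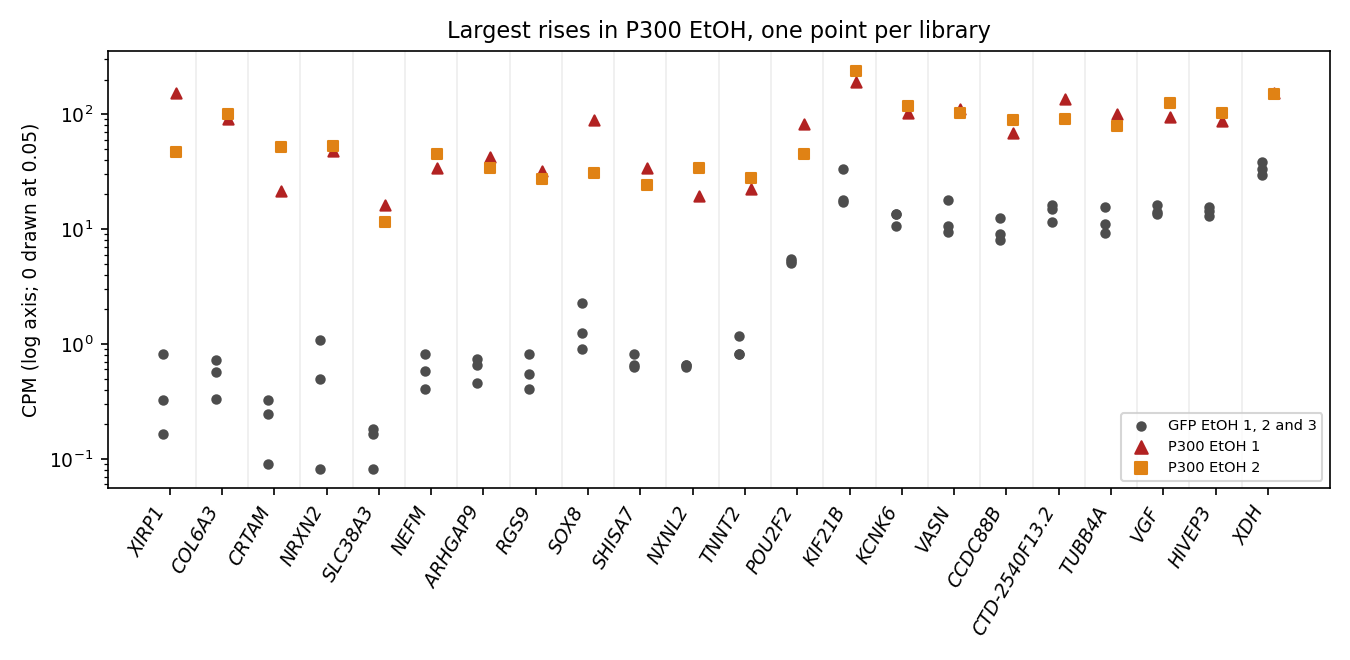
CPM on a log axis for the genes with the largest rises (12 at left) and the largest rises among genes with a GFP mean of at least 5 CPM (10 of 11, at right), 1 point for each EtOH library. The P300 points lie above all GFP points for every gene shown, and the GFP points of the left group lie between 0.0823 and 2.27 CPM.

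The genes that rose from a level of at least 5 CPM in GFP were 11, and they did so by smaller factors. KIF21B, a neuronal kinesin, was at 17.9, 33.1 and 17.2 CPM in GFP and at 192 and 239 CPM in P300, the highest P300 level of the 32 (3.24 ± 0.37, edgeR adjusted p = 0.0459). XDH, the xanthine dehydrogenase of purine breakdown, was at 38.6, 29.8 and 33.6 CPM in GFP and 153 and 150 CPM in P300. Its P300 libraries were nearly equal, and the rise was 2.16 ± 0.26 (edgeR adjusted p = 0.0459). KCNK6, a potassium leak channel, was at 10.7, 13.6 and 13.5 CPM in GFP and 103 and 119 CPM in P300 (3.13 ± 0.30, edgeR adjusted p = 0.0426). Of 75 potassium channel genes, 51 were tested, 2 rose and none fell, where 0.183% of all genes rose. The tested channels had 28 positive and 23 negative differences with a median of 0.22, while the summed level was 327, 397 and 323 CPM in GFP and 771 and 613 CPM in P300.

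POU2F2, an octamer-binding transcription factor of B cells, was at 5.24, 5.54 and 5.02 CPM in GFP and 81.5 and 45.3 CPM in P300 (3.59 ± 0.40). VASN, a membrane protein that binds TGF-beta, was at 10.6, 17.8 and 9.38 CPM in GFP and 111 and 102 CPM in P300 (3.08 ± 0.37). TUBB4A, a brain tubulin, was at 9.17, 15.6 and 11.1 CPM in GFP and 100.0 and 79.6 CPM in P300 (2.91 ± 0.36). Each rose with no overlap between groups. HIVEP3, a zinc-finger protein, rose by 2.74 ± 0.30, CCDC88B by 3 ± 0.36 and the unnamed gene CTD-2540F13.2 by 2.99 ± 0.33. A further 7 genes were APOE, the apolipoprotein E gene (4.28 to 5.57 CPM in GFP, 45.2 and 70.9 in P300), the incretin receptor gene GIPR, the cyclic-AMP activated exchange factor gene RAPGEF3, the natural-killer ligand gene ULBP1, STYK1, GSTO2 and the unnamed RP11-736N17.4. They rose by 3.55 to 4.70 on the log2 scale. Whether the counting used strand is not stated, and reads of an overlapping or antisense gene could be part of any of these counts.

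The 32 genes were looked at again in the Dex libraries, which share no library with the EtOH comparison. All 31 that could be tested there had a positive difference, and both P300 Dex libraries were above every GFP Dex library in 31. Over the 16735 genes tested in both treatments, 16.4% were above every GFP Dex library and 9090 were positive. A gene nearly silent in GFP passes the filter in Dex mainly if P300 Dex is high. For the 11 of the 32 with a GFP EtOH mean under 1 CPM, a positive sign there is thus partly fixed. The 31 above every GFP Dex library were counted over all 32 genes without that filter, while the 16.4% covers tested genes of every level. None of the 31 passed the adjusted test within Dex, where edgeR called 0 of 17795 genes. All 31 had an unadjusted p under 0.05 there, as did 2658 genes in all, 794 of them lower. The median ratio to the GFP mean of the same treatment was 20.8 in P300 EtOH 1, 21.1 in P300 EtOH 2, 23 in P300 Dex 1 and 4.09 in P300 Dex 2. EP300 held 28.6%, 13.4%, 28.8% and 2.42% of the counts of these libraries. All 32 genes were higher in P300 Dex 1 than in P300 Dex 2, whereas 15 of 32 were higher in P300 EtOH 1 than in P300 EtOH 2, whose EP300 shares also differed. COL6A3 was at 0.782, 0.312 and 0.525 CPM in GFP Dex and at 116 and 32.6 CPM in P300 Dex. CRTAM, the gene not tested in Dex, was at 11.1 CPM in P300 Dex 1 and 0.121 CPM in P300 Dex 2, within the GFP Dex range.

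**Figure D3:**
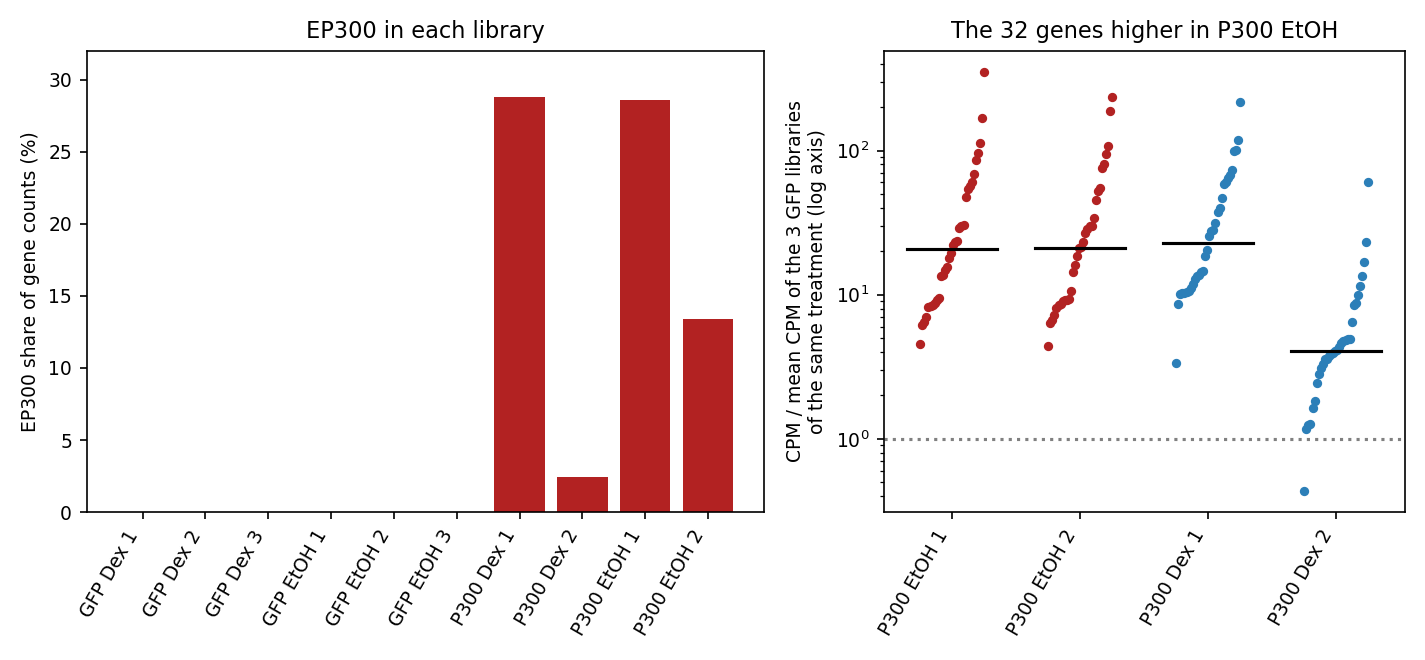
Left, the share of gene counts that fell on EP300 in each of the 10 libraries, in percent. Right, the CPM of each of the 32 genes divided by the mean of the 3 GFP libraries of the same treatment, on a log axis with the median as a bar, in the 4 P300 libraries. The medians are 20.8, 21.1 and 23 in P300 EtOH 1, P300 EtOH 2 and P300 Dex 1, and 4.09 in P300 Dex 2, where EP300 held 2.42% of counts.

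Genes low in GFP were tested mainly where P300 was high, since of 6980 genes with a GFP mean over 0.1 to 1 CPM only 1447 passed the filter. The share of the 32 at low levels can therefore not be read against that of the genes tested, and with at least 1 CPM required in each GFP library no gene passed. The 1036 genes with no count in any GFP EtOH library summed to 1049 CPM in P300 EtOH 1 and 509 CPM in P300 EtOH 2, though the choice of these genes fixes that direction. The 2159 genes over 100 CPM summed to 688900, 776200 and 677000 CPM in GFP and 657800 and 659500 CPM in P300. By Ensembl gene identifier in GENCODE 29, all 32 genes could be matched, and 97.2% of those tested. Their median transcript GC content was 57.1%, against 48.6% for all tested, 8 of 32 (25%) lay on chromosome 19, against 6.70%, and 30 of 32 were protein-coding, against 78.0%. Library composition also moved with GC content: the fifth of genes lowest in GC held 141900 CPM in GFP EtOH 2 and 126100 CPM in P300 EtOH 2, and 181500 to 196400 CPM in the other 3 libraries. The part of that in these rises was not tested beyond a fit that corrects for GC content, in which all 32 still rose.

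Genes of the photoreceptor and of the lung epithelium gave no call. CRX, the transcription factor of photoreceptors, had 0 counts in the 3 GFP libraries together and 78 in the P300 libraries, where it stood at 8.42 and 6.75 CPM. Against a floor of 3 GFP counts it was 95.1-fold higher in P300, and the lower 95% limit for counting error was 75.5-fold. Yet the test was not passed (edgeR adjusted p = 0.0966). Of 35 photoreceptor and retina genes, 14 were tested and 0 passed, and their summed level was 41.1, 55.9 and 41.6 CPM in GFP and 119 and 86.3 CPM in P300. Of 33 lung epithelial genes, 25 were tested, 16 positive and 9 negative, and 0 passed. EPCAM, an epithelial adhesion molecule, was at 1.72, 3.63 and 0.988 CPM in GFP and 12.8 and 20.3 CPM in P300 (edgeR adjusted p = 0.115). KRT7, a simple-epithelium keratin that marks A549, was at 2224, 2917 and 3338 CPM in GFP and 1447 and 1358 CPM in P300 (-1.01 ± 0.29, edgeR adjusted p = 0.122). The epithelial keratin KRT8 was likewise abundant in every group, with means of 8494 and 5615 CPM. Surfactant genes that mark alveolar type II cells were near 0, with SFTPC at means of 0.252 and 0.855 CPM and SFTPB at 0.65 and 0.132 CPM, and HOPX had no count.

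Marker sums of other cell types were higher in one or both P300 libraries. The 10 fibroblast markers summed to 22.9, 37.7 and 21.1 CPM in GFP and 174 and 189 CPM in P300, of which COL6A3 and COL1A1 made 96.3 and 69.5 CPM on average in P300. Of 4 tested fibroblast markers 3 were positive and 1 negative, with a median of 0.90, and 2 were above every GFP library. With no filter on low counts, 8 of the 10 were positive and 2 negative. The markers DCN, LUM, COL1A2 and COL3A1 were at mean levels of 3.16, 1.58, 0.658 and 1.58 CPM in P300. The 9 leukocyte markers summed to 11.5 to 17.4 CPM in GFP and 37.5 and 17.4 CPM in P300, with LYZ at 0 and PTPRC at a mean of 0.46 CPM in P300. Of 5 tested leukocyte markers 4 were positive, with a median of 0.87, and ITGAM, an integrin of myeloid cells, had means of 8.51 and 15.5 CPM, with both P300 libraries above every GFP library. CD14 had means of 1.66 and 3.88 CPM, and its difference was negative without P300 EtOH 1. The 7 endothelial markers summed to 15.0 to 30.9 CPM in GFP and 10.7 and 91.6 CPM in P300, with ERG at 0 in P300. All 5 tested endothelial markers were positive, with a median of 2.93, and 3 were above every GFP library, where 14.1% of all genes were. Markers nearly silent in GFP were tested only where P300 was high, so these list medians and counts are no support by themselves. With at least 1 CPM in every GFP library, the 1 endothelial marker differed by 0.21, the 3 leukocyte markers had a median of 0.87 and the 2 fibroblast markers one of 0.77. TIE1, an endothelial receptor kinase, had means of 0.0819 and 8.26 CPM, and VWF, the von Willebrand factor gene, 0.434 and 6.51 CPM. None of the markers other than COL6A3 passed the test, and the part of these cell types in the results was not tested.

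No gene fell by the test. The 12 genes closest to passing were taken only among those with both P300 libraries below every GFP library. At least 10 counts in each GFP library were also required. Separation of the groups was thus a condition of the choice and not a result. Several of the 12 were antiviral genes. IFI44L, an interferon-induced gene, had the smallest p. It was at 139, 130 and 113 CPM in GFP and at 39.7 and 36.6 CPM in P300. The groups were clearly apart and the P300 libraries were nearly equal, a difference of -1.73 ± 0.27 (log2, SE) with an edgeR adjusted p of 0.0779. CMPK2, an interferon-induced nucleotide kinase, was at 116, 152 and 144 CPM in GFP and 48.5 and 53 CPM in P300 (-1.44 ± 0.27, edgeR adjusted p = 0.101). MB21D1, which encodes the DNA sensor cGAS, had 348 counts in the 3 GFP libraries and 1 count in the P300 libraries. It was at 8.60, 9.17 and 11.7 CPM in GFP and at 0.132 and 0 CPM in P300, a GFP to P300 ratio of 95.2 (95% interval for counting error 17.0 to 3771, edgeR adjusted p = 0.0826). NFKB2, a subunit of NF-kappaB, was at 170, 171 and 170 CPM in GFP and at 53.9 and 72.3 CPM in P300. The GFP libraries were all but identical, and the difference was -1.44 ± 0.26 (edgeR adjusted p = 0.0977).

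The other 8 genes of these 12 had several roles. ARNT2, a partner of PAS-domain transcription factors, was at 51.0, 54.8 and 49.8 CPM in GFP and 12.9 and 8.20 CPM in P300 (-2.27 ± 0.38, edgeR adjusted p = 0.0859). CHFR, a mitotic checkpoint ubiquitin ligase, was at 79.1, 91.2 and 78.9 CPM in GFP and 30.5 and 26 CPM in P300. FAM111A, a protease that restricts viral replication, was at 80.6, 66.7 and 77.0 CPM in GFP and 24.9 and 26 CPM in P300. For these 3 genes the P300 libraries were both well below GFP. CYP20A1, a cytochrome P450 without a known substrate, had 347 counts in GFP and 2 in P300, a ratio of 47.5 (13.0 to 393.5 for counting error). AKR1A1, an aldehyde reductase, NSMCE4A of the SMC complex for DNA repair, the phosphatidate phosphatase LPIN3 and the Holliday junction resolvase GEN1 differed by -2.43, -1.91, -2.65 and -1.93 on the log2 scale, and their edgeR adjusted p ran from 0.0966 to 0.101. With the replicate number as a block, 354 genes fell (2.03%) and 248 rose (1.42%), in a fit with 1 residual degree of freedom. Number 3 has no P300 library, so GFP EtOH 3 did not enter the P300 difference of that fit. Numbers 1 and 2 alone, without the block, gave 0 rises and 0 falls. With the block IFI44L had an adjusted p of 4.1e-05 and NFKB2 of 2.5e-04 (edgeR), and all 12 of these genes passed except MB21D1 and CYP20A1. Over all alternatives the adjusted p of IFI44L ran from 4.58e-06 to 0.421 and that of NFKB2 from 2.48e-04 to 0.421. In the Dex libraries IFI44L was at 121, 134 and 107 CPM in GFP and 44.2 and 76.1 CPM in P300, again without overlap. CMPK2, at 126 to 161 CPM in GFP Dex, was at 46.3 CPM in P300 Dex 1 and 167 CPM in P300 Dex 2. ARNT2, AKR1A1, NSMCE4A, LPIN3 and CHFR overlapped there too, with log2 differences of -0.46, -0.003, -0.08, 0.10 and -0.06. MB21D1, CYP20A1, NFKB2, FAM111A and GEN1 stayed lower without overlap. MB21D1 had 29 and 17 counts in P300 Dex (-1.26, against -6.45 in EtOH). CYP20A1 had 56 and 28 (-0.89, against -5.58 in EtOH).

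**Figure D4:**
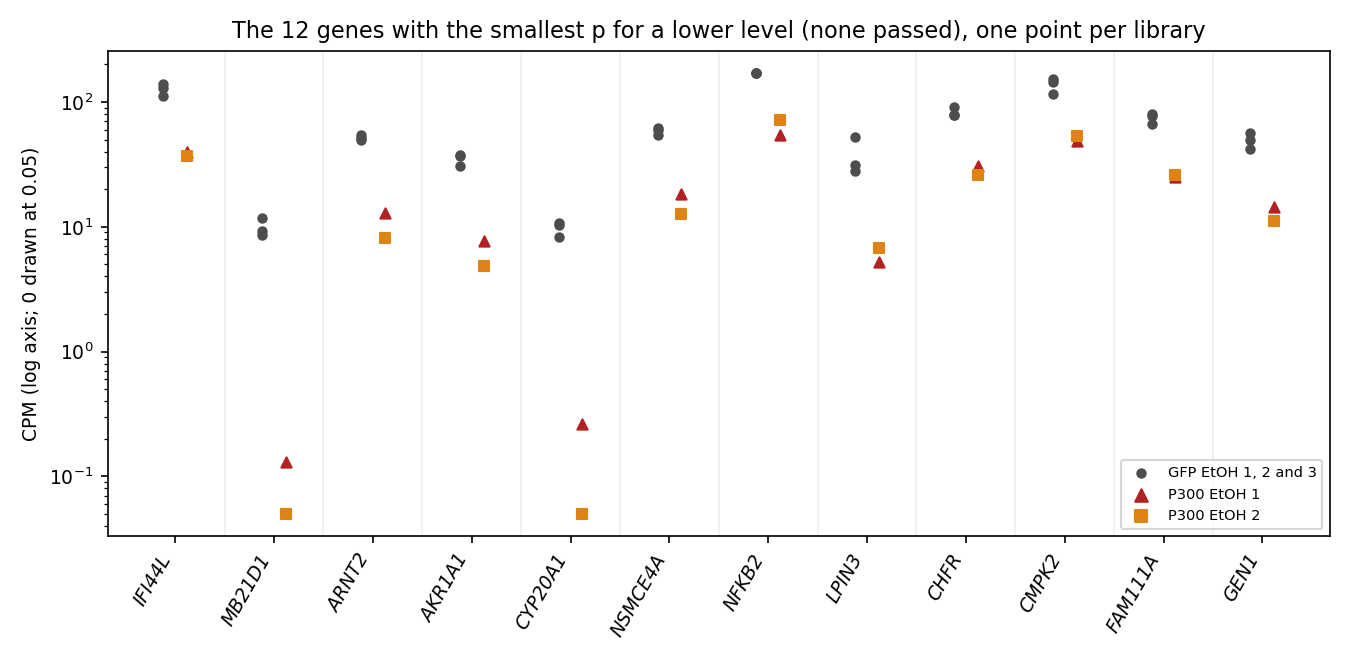
CPM on a log axis for 12 genes lower in P300 EtOH, 1 point for each EtOH library. They had the smallest p among genes with both P300 libraries below all GFP libraries, so that separation was a condition of the choice. None of the 12 passed the test at an adjusted p of 0.05.

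Interferon-stimulated genes were lower as a list. All 50 tested members had a negative difference, 39 of them with both P300 libraries below every GFP library, and the median was -0.93, compared with -0.15 for all genes and 26.5% of all genes below every GFP library. None passed the test. Their summed level was 18430, 18360 and 16000 CPM in GFP and 9827 and 9397 CPM in P300. XAF1 had means of 277 and 108 CPM, the GTPase gene MX1 1590 and 760 CPM and the transcription factor gene STAT2 478 and 221 CPM. The number of negative members stayed between 47 and 50 under every alternative, and the median minus that of all genes between -1.02 and -0.33. With the replicate block 28 of the 50 fell, where 2.03% of all genes did, and with DESeq2, which called 3.06% of all genes lower and 5.77% higher, 9 did. The block over all 10 libraries called 3 of the 50 lower, a GC correction 0 and the block with the GC correction 1, the GC settings having been chosen after seeing the data. In Dex the sum was 16220 to 18590 CPM in GFP, 7892 CPM in P300 Dex 1 and 15990 CPM in P300 Dex 2. There 22 of the 50 (44%) were below every GFP Dex library, against 15.6% of all genes.

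Other immune lists were also mostly negative. All 18 tested genes of MHC class I antigen presentation were negative, with a median of -0.74 and 10 below every GFP library, where 26.5% of all genes were. Over the alternatives that median ran from -1.16 to -0.44, and without P300 EtOH 1 it was 0.13 above that of all genes. TAP1, the peptide transporter, was at 215, 336 and 217 CPM in GFP and 123 and 89.2 CPM in P300 (-1.27 ± 0.32, edgeR adjusted p = 0.115). HLA-B and HLA-C had means of 359 and 387 CPM in GFP and 133 and 144 CPM in P300. Alleles and near-identical HLA genes can share reads, so these are uncertain. Of 22 tested sensors of cytosolic DNA and RNA, 20 were negative and 15 below every GFP library, with a median of -0.85. OAS1, which makes the activator of RNase L, was at 488, 558 and 452 CPM in GFP and 253 and 295 CPM in P300. OAS1 and TAP1 are also members of the interferon list. Of 35 NF-kappaB subunits and targets, 25 were negative, with a median of -0.55. None of these passed the test. The replicate block called 7 of the MHC genes, 8 of the sensors and 6 of the NF-kappaB genes lower, and 1 NF-kappaB gene higher, where it called 2.03% of all genes lower. These lower calls were 3, 1 and 6 with the block over all 10 libraries, and 2, 0 and 2 with the block and the GC correction. In Dex the shares below every GFP library were 16.7% for MHC, 31.8% for sensors, 25.7% for NF-kappaB and 15.6% for all genes. The Dex medians of these 3 lists were -0.30, -0.30 and -0.07, against 0.06 for all genes.

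Genes of dividing cells were lower too. Of 49 tested G2 and M phase genes, 48 were negative and 33 were below every GFP library (26.5% of all genes were), with a median of -0.93 and 0 past the test. Their summed level was 4347, 5693 and 5730 CPM in GFP and 2737 and 2542 CPM in P300. PLK1, a kinase that drives mitosis, was at 91.7, 169 and 132 CPM in GFP and 39.7 and 38.6 CPM in P300 (-1.74 ± 0.35, edgeR adjusted p = 0.105). PRC1, which bundles the spindle midzone, was at 159, 209 and 211 CPM in GFP and 82.5 and 67.5 CPM in P300 (-1.36 ± 0.27, edgeR adjusted p = 0.109). MKI67, the gene of the proliferation marker Ki-67, had means of 1241 and 526 CPM. In bulk RNA fewer dividing cells and less of these transcripts in each cell cannot be told apart. In Dex, 34 of the 49 (69.4%) were again below every GFP library, against 15.6% of all genes, and the sums were 4920 to 6505 CPM in GFP and 2462 and 4173 CPM in P300.

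Of 54 tested S phase and replication genes, 51 were negative and 29 below every GFP library (26.5% of all genes), with a median of -0.82. MCM4, a subunit of the replicative helicase, was at 202, 198 and 276 CPM in GFP and 133 and 62.7 CPM in P300 (-1.20 ± 0.38, edgeR adjusted p = 0.140). Among 54 replication-dependent histone genes 47 were negative, with a median of -0.72. None of the genes in these lists passed. With the replicate block 11 of the G2 and M genes, 5 of the S phase genes and 7 of the histone genes fell, where 2.03% of all genes did. The numbers were 3, 0 and 3 with the block over all 10 libraries, and 4, 1 and 1 with the block and the GC correction. In Dex 26 of the 54 histone genes were negative, with a median of 0.02, and 11.1% were below every GFP library. Of the S phase genes 44 were negative there, with a median of -0.33 and 40.7% below every GFP library. Over all genes 15.6% were below every GFP Dex library.

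**Figure D5:**
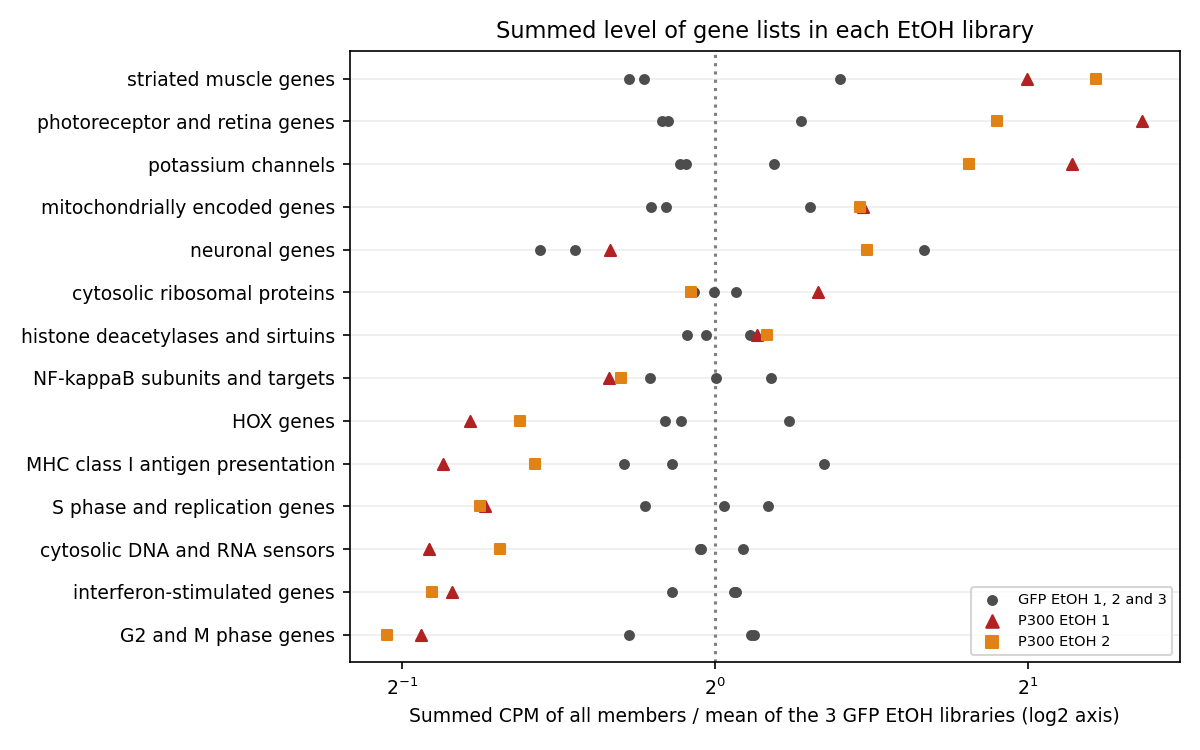
Summed CPM of all members of 14 gene lists in each EtOH library, divided by the mean of the 3 GFP libraries, on a log2 axis. Muscle, retina and potassium channel genes lie to the right of the GFP points in both P300 libraries, neuronal genes overlap them, and interferon-stimulated, sensor, S phase, G2 and M phase and HOX genes lie to the left.

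HOX genes, which set position along the body axis, had 20 of 24 tested members negative and 14 below every GFP library, with a median of -1.36, or -1.33 with the 3 members at 0 counts in a group set to their bound. Over all genes 26.5% were below every GFP library. The median was -0.12 over the 10 members tested after thinning to the shallowest library and -6.05 without P300 EtOH 1. None passed the test. HOXB7 was at 54.0, 67.8 and 50.2 CPM in GFP and 15.9 and 23.1 CPM in P300 (-1.57 ± 0.36, edgeR adjusted p = 0.114). In Dex the HOX median was -0.02 and 2 of 24 were below every GFP library.

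The enzymes and readers of acetylation were mixed. Of 16 lysine acetyltransferase genes besides EP300, 8 were positive and 8 negative, and 0 passed. KAT2A, the GCN acetyltransferase of the SAGA complex, was at 78.3, 156 and 95.8 CPM in GFP and 35.6 and 39.1 CPM in P300 (-1.56 ± 0.38, edgeR adjusted p = 0.114). KAT6B, an acetyltransferase of the MYST family, was at 91.0, 80.0 and 75.5 CPM in GFP and 135 and 167 CPM in P300 (0.88 ± 0.25, edgeR adjusted p = 0.122). Of 17 tested deacetylase and sirtuin genes 9 were positive and 8 negative, and 0 passed. HDAC5, a class II histone deacetylase, was at 34.6, 58.6 and 25.7 CPM in GFP and at 159 and 233 CPM in P300. Both P300 libraries were far above GFP (2.30 ± 0.40), with an edgeR adjusted p of 0.0939, which was 2.17e-07 with the replicate block and ran up to 0.421 over the alternatives. SIRT1 was at 98.7, 51.5 and 80.1 CPM in GFP and 43.1 and 18.3 CPM in P300. Of 32 bromodomain readers 13 were positive, and CECR2, a chromatin remodelling subunit, was at 0.737, 1.27 and 0.905 CPM in GFP and 20.3 and 24.6 CPM in P300 (4.51 ± 0.60, edgeR adjusted p = 0.0524).

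Mitochondrially encoded genes were higher in P300 in 14 of 15 members, 9 of them above every GFP library (14.1% of all genes), with a median of 0.56 and 0 past the test. MT-ATP6, a subunit of ATP synthase, was at 878, 1029 and 889 CPM in GFP and 2142 and 1720 CPM in P300 (1.05 ± 0.24, edgeR adjusted p = 0.114). Mitochondrial transcripts made 3.13%, 3.92% and 3.05% of counts without EP300 in GFP and 4.85% and 5.03% in P300. Ribosomal RNA genes made 0.813%, 4.24% and 0.510% in GFP and 1.02% and 2.05% in P300. The part of RNA quality in the results above was not tested.

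Among the stress lists, 29 of 37 tested genes of the ER stress and integrated stress responses were negative, 20 of them below every GFP library (26.5% of all genes), with a median of -0.43. NRF2 targets, which protect against oxidants, had 33 of 38 negative and a median of -0.48, and HMOX1, heme oxygenase, was at 275, 227 and 343 CPM in GFP and 147 and 158 CPM in P300. Immediate early genes were mixed, with 21 of 35 negative. Of 39 tested p53 targets 26 were negative, with a median of -0.17, near that of all genes. DDB2, a DNA damage sensor, was at 51.7, 55.2 and 51.8 CPM in GFP and 22.2 and 8.68 CPM in P300 (-1.73 ± 0.46, edgeR adjusted p = 0.116). Of 39 tested genes that glucocorticoid is known to induce, 21 were positive and 18 negative in these hormone-free cells, and 0 passed. The replicate block called 7 of them lower, where it called 2.03% of all genes lower. The block over all 10 libraries called 4 of them lower and 1 higher, and 153 lower and 179 higher among all 19843 genes. CDKN1C, a cyclin-dependent kinase inhibitor, was at 0.901, 2.36 and 1.07 CPM in GFP and 14.3 and 17.4 CPM in P300 (3.44 ± 0.71, edgeR adjusted p = 0.109).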

How the data were processed

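Per the file headers, the deposited table holds raw counts, whole numbers per gene and library, and a block of 10 columns of normalized counts that was not used. For the reads, the submitters' processing notes name the build GRCh37, the trimmer cutadapt, the aligner STAR 2.4.2a, the counter HTSeq 0.6.1p1 and DESeq2 1.10.1. For the annotation and strand setting, the sources used here name none. The labels' protocols name 2 sets of kits, for total and for poly(A) RNA, without saying which library had which. The labels gave each library's group and number.

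EP300 was removed before library sizes were computed. The counts of the 5 EtOH libraries were tested with edgeR 4.0.16 (R 4.3.3; TMM factors, default expression filter by group, quasi-likelihood test, Benjamini-Hochberg threshold of 0.05). CPM use TMM-scaled sizes, computed apart for the Dex libraries. The method was also run on simulated counts, with changes planted only in genes over 5 CPM in GFP. That run does not cover genes nearly silent in GFP. Alternatives used limma 3.58.1 (voom), DESeq2 1.42.0, other scalings, filters and left-out libraries. Intervals and the floor of 3 counts cover counting error alone: without molecular identifiers, reads do not stand for separate molecules. No pair of libraries within a group differed by as little as sampling noise.

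Replicate numbers were not part of the main fit, and pairing by number was used only in the block alternatives. Deviations from the group means correlated at 0.123 to 0.649 in each of 13 same-number pairs. They correlated at -0.541 to 0.285 in 24 pairs with different numbers. The 2 libraries of a P300 group have mirror-image deviations, so part of this contrast is fixed. GFP EtOH 1, for example, correlated at 0.214 with P300 EtOH 1 and at -0.214 with P300 EtOH 2.

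The 32 gene lists, the 3 marker lists and the naming rule were chosen with earlier results of these data known. The rule named the 12 largest rises, the rises among genes with a GFP mean of at least 5 CPM, the 12 lower genes with the smallest p, and up to 4 genes per list. The 12 largest rises and the 12 lower genes were taken only among genes whose GFP and P300 libraries did not overlap. They also needed at least 10 counts in each P300 library for a rise, or in each GFP library for a fall. A few genes are not reported here.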

Additional observations from a re-analysis of the deposited data

How the results depend on the processing

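The count of 32 genes that rose and 0 that fell in P300 EtOH depended on the fit. With the replicate number as a block, 248 rose and 354 fell, and 31 of the 32 were kept. The block over all 10 libraries gave 179 and 153, and all 10 libraries without it 268 and 199. DESeq2 gave 1008 and 534, limma-voom 280 and 158, and voom with quality weights 263 and 2. RLE factors gave 56 rises, library sizes alone 58, and a filter of at least 5 CPM in 2 libraries 117 rises and 1 fall. Requiring at least 1 CPM in each GFP library gave 0 rises, with 19 of the 32 still tested, and GFP numbers 1 and 2 alone gave 0. Thinned to the shallowest library, 21 rose, 17 of them among the 32. A GC correction, chosen after seeing the data, gave 370 and 20, and with the replicate block 251 and 41. The causes were not tested. Leaving out a library at a time gave 0 to 2897 rises and 0 to 3484 falls.

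Of the named genes' fold changes under the alternatives, 1601 kept direction and side of the threshold, 293 gained significance, 129 lost it and 1 reversed: CD14, which ran from -0.18 (log2) without P300 EtOH replicate 1 to 1.82 without P300 EtOH replicate 2. In P300 EtOH 2 a gene under 1.52 CPM may have no count.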

Other observations

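The lists not described above held 0 or 1 call each. Over all genes tested 0.183% rose and 0% fell, so 0 calls in a list of this size says little about its members. Of 31 tested collagen genes 19 were positive, with a median log2 difference of 0.30, and COL6A3 was the only call. Among 62 tested cadherins and protocadherins 32 were positive, with a median of 0.06 and 0 calls. Their median was -5.75 without P300 EtOH 1 and -0.62 with the replicate block, where 41 were negative, 1 fell and 2 rose. Of all genes the block called 2.03% lower and 1.42% higher. PCDH1, a protocadherin of airway epithelium, was at 13.0, 13.9 and 6.83 CPM in GFP and 139 and 86.3 CPM in P300, a difference of 3.33 ± 0.42 (SE, edgeR adjusted p = 0.0510). CDH22 was at 0.0819, 0.363 and 0.0823 CPM in GFP and 6.97 and 20.3 CPM in P300. Of 21 tested keratins 11 were positive and 0 passed. KRT6A, a keratin of activated epithelium, was at 3.11, 1.91 and 2.55 CPM in GFP and 33.9 and 14.5 CPM in P300. Of 63 tested developmental transcription factors 29 were positive, and SOX8 was the only call. MAGEA6 was the sole cancer testis antigen tested, at 15.4, 13.3 and 17.0 CPM in GFP and 7.23 and 5.79 CPM in P300.

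Polycomb genes had 14 of 30 positive and 0 calls, with the accessory subunit gene JARID2 at 69.3, 86.6 and 79.5 CPM in GFP and 195 and 114 CPM in P300. Of 82 tested cytosolic ribosomal protein genes 56 were positive, with a median of 0.17, and their sums overlapped, from 14890 to 16350 CPM in GFP to 19610 and 14790 CPM in P300. Without P300 EtOH 1, 58 of the 82 were negative, with a median of -0.31, against -0.58 for all genes in that fit. Over all settings the list's median minus that of all genes ran from 0.25 to 0.50. Of 41 cholesterol and fatty acid genes 28 were negative, with APOE, which was put in this list, as the only call. Heat shock genes had 15 of 25 negative and YAP and TGF-beta targets 16 of 29, with medians of -0.06 and -0.08. In the latter list SNAI1, a repressor of epithelial genes, was at 2.13, 5.00 and 3.54 CPM in GFP and 24.1 and 13.0 CPM in P300. ID3, an inhibitor of helix-loop-helix factors, was at 100.3, 214 and 122 CPM in GFP and 45.1 and 69.9 CPM in P300, and neither passed.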
